A study of Solanum lycopersicum with 24 samples.

Results

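The genes described here are those for kinases, protein phosphatases and receptor-like proteins that carried a peak of N1-methyladenosine (m1A), a methylated adenosine, in tomato fruit mRNA. They were chosen by words in the description that the peak lists give each gene ("protein kinase", "receptor-like", "kinase" or "protein phosphatase"), and a gene was taken as the Solyc locus of the listed transcript. The rule found 44 genes of the 1945 mRNA genes with a peak in any library, and 974 of the 1945 had a description that could be searched. By their descriptions, 11 encode receptor-like proteins and kinases, 14 other protein kinases, 12 phosphatases and 7 metabolic or lipid kinases. A gene could enter only by having a peak in at least 1 library, so at least 1 call per gene follows from the rule.

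Wild-type Ailsa Craig fruit (AC) was set beside that of Never-ripe (Nr), a line homozygous for a mutation in an ethylene receptor, in the AC background. Each was sampled at a green stage (AC MG and Nr G, approximately 39 days post-anthesis) and at a late stage, 6 days after breaker, when wild-type fruit (AC Br+6) is red and mutant fruit (Nr O) is orange. The titles give the mutant's stages as G and O, which were read as the green and the orange stage. Each of the 4 groups had 3 biological replicates, and RNA fragments bound by an m1A antibody (IP) gave 12 libraries, each with its own peak list.

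Protein kinases move phosphate from ATP onto serine, threonine or tyrosine residues of other proteins, and protein phosphatases take it off again. Plant receptor-like kinases sit in the plasma membrane with a sensing part outside the cell and a kinase inside, and receptor-like proteins have the outer part without the kinase. Metabolic and lipid kinases phosphorylate small molecules such as pyruvate or membrane phosphoinositides. In fruit, phosphorylation is known from ethylene and abscisic acid signalling, and the methyl group of m1A blocks normal base pairing of the adenosine that carries it.

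The mRNA lists held 104 to 735 called genes per library, and AC MG replicate 1 (609 genes) and AC Br+6 replicate 3 (735) stood apart as the longest. Sequencing depth is unknown, as the lists hold no read totals. Lists give peaks and not expression, so a missing call cannot be told apart from a weakly expressed mRNA, nor fewer cells of a type from less RNA per cell. Of the ripening genes used to check the tissue, E8 was called in 4 of 6 wild-type libraries, 2 at each stage, and in none of the 6 from Never-ripe. PSY1 was called in 1 green and 1 red wild-type library and ACO1 in 2 green and 1 red, also in none from Never-ripe. PG2A was called in 1 library each of AC MG, AC Br+6 and Nr O. None of the 4 genes was called in red wild-type fruit alone. The 3 green tissue genes found, for chlorophyll-binding proteins and rubisco, had 2 calls in Nr G, 1 in Nr O and none in AC. No gene described by a seed storage protein or oleosin word was called in any library.

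Most of the 44 genes were called in a single library. A peak was listed in 1 library for 34 genes (77.3%), in 2 for 5 genes, in 3 to 9 for 3 genes and in 10 or more for 2 genes. Over all 1945 genes 75.6% were called in 1 library and 11.2% in 3 or more, against 11.4% of the 44. Of the 34 genes called once, 17 (50%) were called in AC MG replicate 1 or AC Br+6 replicate 3, as were 52.5% of all genes called once. Without those 2 libraries 25 of the 44 genes, and 1125 of the 1945, still had a call.

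**Figure D1:**
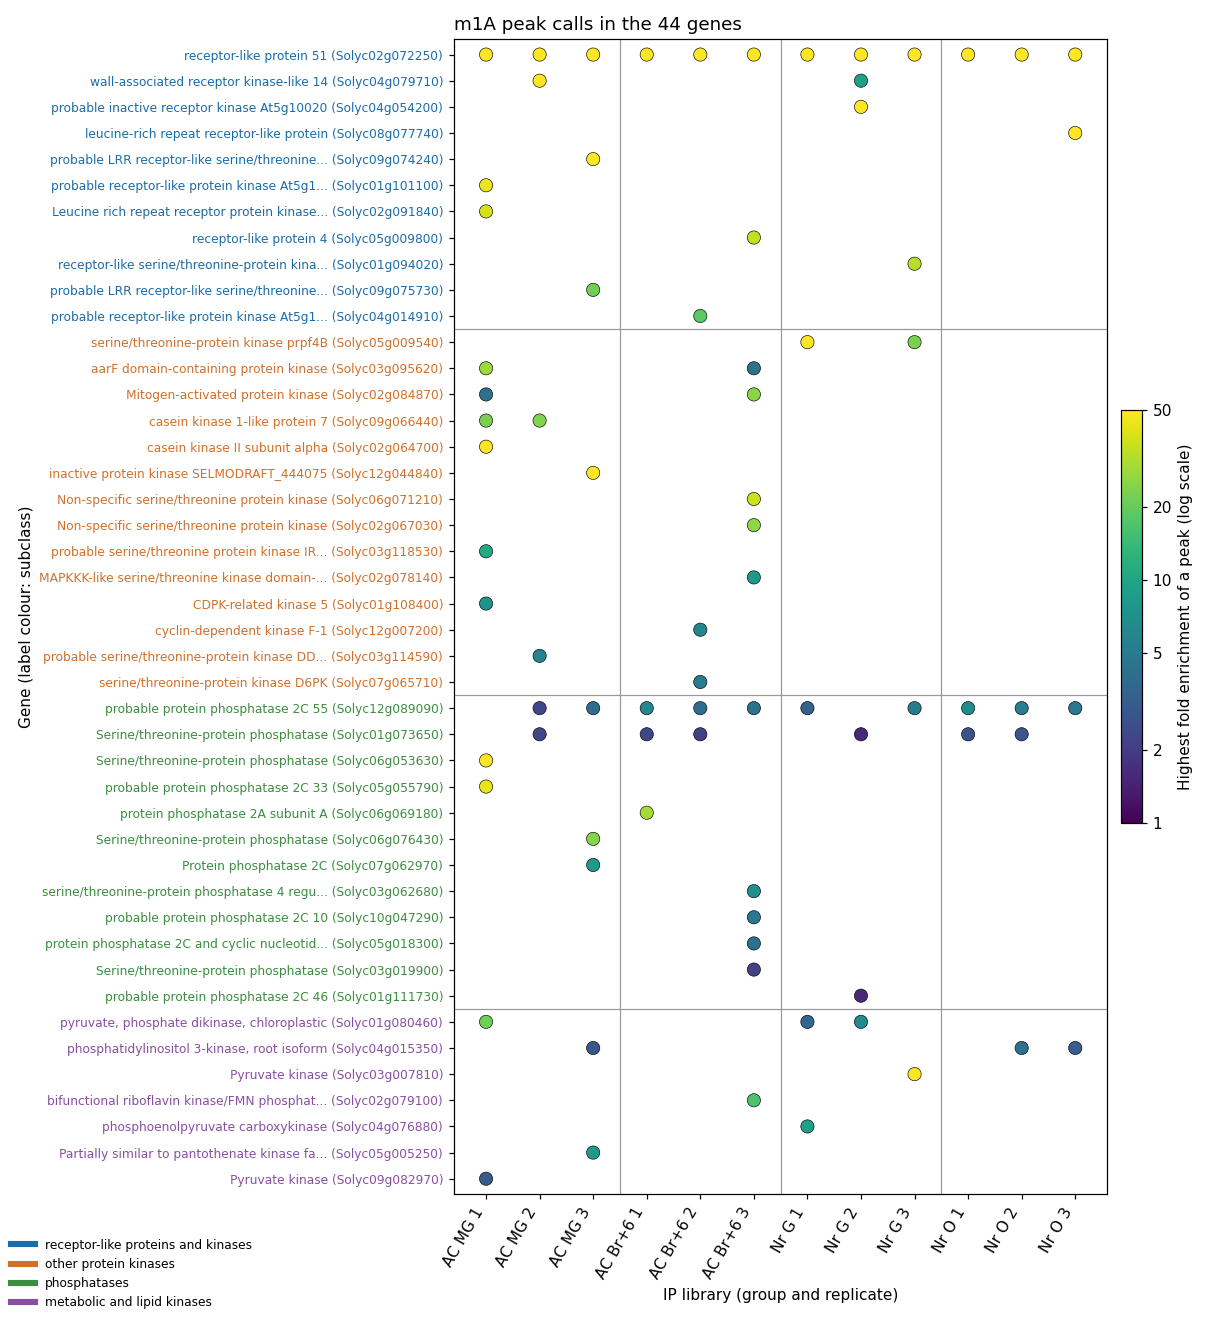
Calls of the 44 genes (rows, label colour by subclass) in the 12 IP libraries (columns); a point is a gene with 1 or more listed peaks in that library and its colour the highest fold enrichment of them, on a log scale. Receptor-like protein 51 has a point in all 12 columns and the phosphatase 2C 55 gene in 10, while 34 genes have 1 point each.

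Among receptor-like genes, that for receptor-like protein 51 (Solyc02g072250) was called in all 12 libraries. The Arabidopsis protein of this number, also known as SNC2, acts in immunity. Its peak lay on chromosome 2 from 42124626 to between 42124700 and 42124702, a stretch of 74 to 76 bases that began at the same base in every library (positions are those of the lists, on assembly SL3.00). Fold enrichment, the authors' ratio of IP signal over background, was 50 in 11 libraries and 49.7 in AC Br+6 replicate 3, and 50 is the highest value the lists hold. The groups therefore did not separate, and a difference above that ceiling would not show. Of the 61 genes called in all 12 libraries, 7 had a value of 50 in at least 11 of them and 46 had it in none.

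The other 10 receptor-like genes were called in 1 or 2 libraries, and each had a peak of at least 18.8 fold enrichment in one of them. The gene for a wall-associated receptor kinase-like protein 14 (Solyc04g079710, chromosome 4, 64176677 to 64176980), of a family known for binding cell wall pectin, had a value of 50 in AC MG replicate 2 and 9.22 in Nr G replicate 2. Both libraries were green fruit, one of each genotype, and the peaks overlapped by 232 bases. An inactive receptor kinase gene (Solyc04g054200) was called only in Nr G replicate 2, at 50. A leucine-rich repeat receptor-like gene (Solyc08g077740) was called only in Nr O replicate 3, also at 50, and was the only receptor-like gene other than receptor-like protein 51 with a call in Nr O. The gene for receptor-like protein 4 (Solyc05g009800) had a value of 35.0 in AC Br+6 replicate 3.

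The remaining 6 receptor-like genes each had a call in 1 library. The gene described as CLAVATA1 (Solyc02g091840), after the Arabidopsis receptor that restrains stem cells of the shoot tip, had peaks of 11.03 and 39.0 in AC MG replicate 1. A gene named after At5g18500 (Solyc01g101100) had a value of 44.3 in the same library, and a second gene of that description (Solyc04g014910) had 18.8 in AC Br+6 replicate 2. Solyc09g074240, named for RKF3, had a value of 50 in AC MG replicate 3. Solyc09g075730 had 21.5 in that library, and Solyc01g094020 had 32.9 in Nr G replicate 3.

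Among the other protein kinases, none was called in more than 2 libraries and none in any Nr O library. Over all 1945 genes 11.2% were called in 3 or more libraries and 9.92% in Nr O, shares at which few of 14 genes would have such calls. A call in AC alone was found for 13 of the 14 genes, and over all 1945 genes 61.4% were called in AC alone. The AC lists include both of the longest ones. Without those 2 libraries 6 of the 14 genes kept a call, as did 1125 of all 1945. Of these 6 genes, 1 was called in Nr alone and the rest in AC alone. The share of all genes called in AC alone is not given for this smaller set of libraries. How far list length sets these calls was not tested.

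The gene for the kinase PRPF4B (Solyc05g009540), which phosphorylates splicing factors in human cells, was the exception, with calls in Nr alone. It had a value of 50 in Nr G replicate 1 and 22.7 in Nr G replicate 3. These peaks lay 8450 bases apart on chromosome 5, between 3749145 and 3758066. A casein kinase 1-like protein 7 gene (Solyc09g066440, chromosome 9, 65085756 to 65088646) was called in AC MG alone, at 22.9 in replicate 1 and 23.6 in replicate 2. Its peaks were alike in strength and 2541 bases apart.

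MAPK8 (Solyc02g084870, chromosome 2, 48573080 to 48573683), a mitogen-activated protein kinase of the last tier of its cascade, had a value of 4.30 in AC MG replicate 1 and 24.9 in AC Br+6 replicate 3. Both peaks began at the same base, but the first was 13 bases long and the second 603. The aarF domain-containing kinase gene (Solyc03g095620), of an atypical family found in plastids and mitochondria, had a value of 27.8 in AC MG replicate 1 and 4.46 in AC Br+6 replicate 3, 7162 bases apart. For both genes the calls came only from the 2 longest lists.

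Kinase genes called once included those for the catalytic alpha subunit of casein kinase II (Solyc02g064700), at 50 in AC MG replicate 1, and for an unspecified serine/threonine kinase (Solyc06g071210), at 36.8 in AC Br+6 replicate 3. The gene with the symbol SNF1 (Solyc02g067030), after the yeast kinase that senses energy supply, had a value of 25.6 in AC Br+6 replicate 3. An inactive kinase gene (Solyc12g044840) had 49.9 in AC MG replicate 3. The rest lay lower, between 5.03 for a D6PK gene (Solyc07g065710), a kinase of auxin transporters in Arabidopsis, and 10.8 for an IREH1 gene (Solyc03g118530). Between them were a MAPKKK-like gene (Solyc02g078140), a CDPK-related kinase 5 gene (Solyc01g108400), a cyclin-dependent kinase F-1 gene (Solyc12g007200) and Solyc03g114590.

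The phosphatases held 2 of the 5 genes called in 3 or more libraries, both with weak peaks. The gene for a probable protein phosphatase 2C 55 (Solyc12g089090, chromosome 12, 65195282 to 65195483) was called in 10 libraries, all but AC MG replicate 1 and Nr G replicate 2. Protein phosphatases 2C need a metal ion, and some of them restrain abscisic acid signalling. Fold enrichment was 2.3 and 3.94 in AC MG replicates 2 and 3, 6.02, 3.97 and 4.46 in the AC Br+6 libraries, 3.38 and 5.03 in Nr G replicates 1 and 3, and 6.50, 5.13 and 4.81 in the Nr O libraries. The called values of green and orange Never-ripe libraries overlapped, while the 3 red wild-type values lay above the 2 green ones, the nearest being 3.97 and 3.94. As percentiles of each peak's own list, the values were 5.0 and 16.7 in AC MG and 24.5, 17.6 and 18.7 in AC Br+6. They were 10.1 and 20.1 in Nr G and 33.8, 21.5 and 27.1 in Nr O. By percentile the called late values lay above the called green ones in both genotypes. No test was made of fold enrichments or percentiles from different lists. All late libraries of both genotypes held the call, against 4 of 6 green ones.

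All 10 of its peaks began at the same base. In 9 libraries they were 197 to 201 bases long, and in AC MG replicate 2 the peak was 21 bases. That weakest peak had the same score and fold enrichment as 2 other mRNA peaks of its list.

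A serine/threonine-protein phosphatase gene (Solyc01g073650, chromosome 1, 80903163 to 80903364) was called in 6 libraries. Its fold enrichment was 2.3 in AC MG replicate 2, 2.26 and 2.12 in AC Br+6 replicates 1 and 2, 1.57 in Nr G replicate 2, and 2.74 and 2.80 in Nr O replicates 1 and 2. All 6 peaks ended at the same base and began within 1 base of each other. The score, 10 times the negative log10 of the peak's p-value, ran from 15.02 to 75.01. The long lists of AC MG replicate 1 and AC Br+6 replicate 3 did not hold the call.

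The other 10 phosphatase genes were called once each. A serine/threonine-protein phosphatase gene (Solyc06g053630) at 50 and a phosphatase 2C 33 gene (Solyc05g055790) at 43.9 were the strongest, both in AC MG replicate 1. The gene for subunit A of protein phosphatase 2A (Solyc06g069180), the scaffold that holds the enzyme together, had peaks of 20.5 and 29.6 in AC Br+6 replicate 1, and Solyc06g076430 had a value of 24.5 in AC MG replicate 3. DIG3 (Solyc07g062970), described as a protein phosphatase 2C, had 8.24 in that library. The weakest was a phosphatase 2C 46 gene (Solyc01g111730) at 1.57 in Nr G replicate 2. The other 4 genes (Solyc03g062680, a phosphatase 4 regulatory subunit, Solyc10g047290, Solyc05g018300 and Solyc03g019900) were called in AC Br+6 replicate 3 alone, with highest values from 2.17 to 6.86.

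Among metabolic and lipid kinases, the root-isoform phosphatidylinositol 3-kinase gene (Solyc04g015350) was the one with calls in Nr O. Plant enzymes of this type make a membrane lipid that guides traffic to the vacuole and autophagy. Its peak had a value of 2.95 in AC MG replicate 3, 4.20 in Nr O replicate 2 and 3.14 in Nr O replicate 3, on chromosome 4 from 5551901 to 5552001 in each. It was weak everywhere, ranking 283 of 308, 123 of 151 and 112 of 129 peaks in these lists. It was in no AC Br+6 and no Nr G list, including the longest.

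The chloroplast pyruvate, phosphate dikinase gene (Solyc01g080460, chromosome 1, 79549829 to 79554840), whose enzyme turns pyruvate into phosphoenolpyruvate, was called in 3 green libraries. AC MG replicate 1 held 3 peaks of 18.1, 21.5 and 9.51, Nr G replicate 1 held 1 of 3.73, and Nr G replicate 2 held 1 of 6.47. No peak overlapped one of another library. A pyruvate kinase gene (Solyc03g007810), for the opposite step, had a value of 49.9 in Nr G replicate 3, and a second (Solyc09g082970) had 3.05 in AC MG replicate 1. The phosphoenolpyruvate carboxykinase gene (Solyc04g076880), for an enzyme of sugar synthesis from organic acids, had 9.42 in Nr G replicate 1. This gene was placed here only because its description contains "kinase". The riboflavin kinase gene (Solyc02g079100), for an enzyme that makes flavin mononucleotide, had peaks of 14.3 and 16.6 in AC Br+6 replicate 3. Solyc05g005250, partly similar to pantothenate kinases, which start coenzyme A synthesis, had 8.24 in AC MG replicate 3, over 14 bases.

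By subclass, peaks of receptor-like genes ranked highest in their lists and peaks of phosphatase genes lowest. The median fold enrichment was 11.03 over the 85 peaks and 14.4 over all 3852 mRNA peaks, and the median percentile of a peak within its own list was 45.6. Receptor-like genes had a median percentile of 93.6 over 24 peaks, other protein kinases 55.5 over 19, metabolic and lipid kinases 38.7 over 14, and phosphatases 18.2 over 28. Without receptor-like protein 51 the receptor-like median was 82.6, and without the 2 recurrent phosphatase genes the phosphatase median was 35.3. Counted by gene, 8 of 11 receptor-like genes and 6 of 14 other protein kinases had a peak at or above percentile 75 of a list. So did 2 of 12 phosphatase genes and 1 of 7 metabolic or lipid kinases, and phosphatases were not the lowest by this count. By the same measure, 8 of 12 phosphatase genes and 0 of 11 receptor-like genes stayed below the middle of every list that held them. The same held for 6 of 14 other protein kinases and 4 of 7 metabolic or lipid kinases. These counts are given for members only. No test was made between subclasses, as peaks of a gene and of a library are not independent.

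A value of 50 was listed for 18 of the 85 peaks (21.2%) and 9.11% of all mRNA peaks, but 11 of the 18 belonged to receptor-like protein 51. Without that gene the share was 9.59%. Peak length had a median of 199 bases, against 198 over all mRNA peaks. By recurrence, the median percentile was 55.8 for members called in 1 library and 62.0 for the 5 called in 2, against 45.5 and 47.3 over all genes. It was 13.7 for the 3 members called in 3 to 9 libraries and 19.4 for the 1 called in 10, against 41.8 over all genes called in 3 to 9 and 51.1 over those called in 10 or 11. Receptor-like protein 51 had 94.3, against 70.4 over all genes called in 12.

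**Figure D2:**
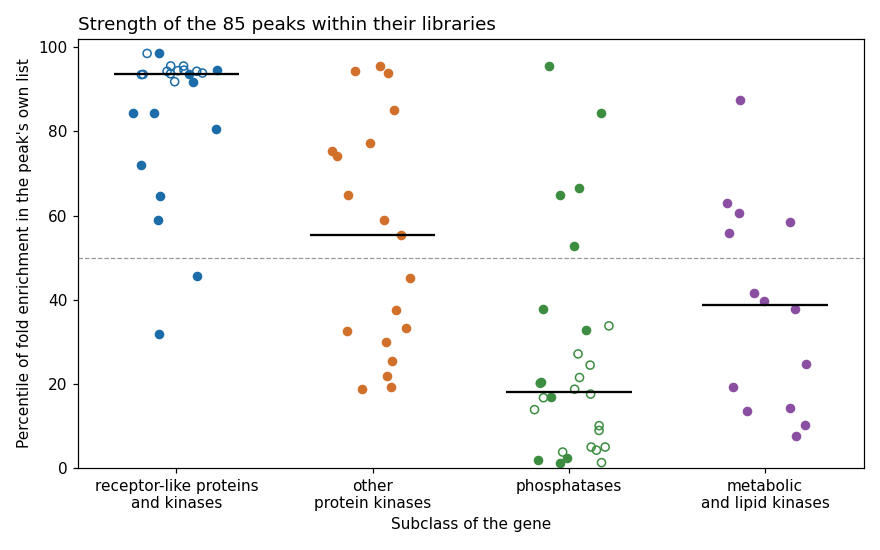
Percentile of each of the 85 peaks by fold enrichment within its own library's mRNA list, by subclass; lines are medians, the dashed line is 50, and open points are receptor-like protein 51 and the 2 recurrent phosphatase genes. Medians run from 93.6 in receptor-like genes to 18.2 in phosphatases.

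Whether repeated calls of a gene marked the same place was examined for the 10 genes called in 2 or more libraries. Peaks of at least 2 libraries shared 1 base or more in 6 of the 10 genes (60%), and in 340 of all 474 such genes (71.7%). Among genes called in exactly 2 libraries the shares were 2 of 5 members and 51.4% of 257 genes. The shared places belonged to receptor-like protein 51, the phosphatase 2C 55 gene, Solyc01g073650, the phosphatidylinositol 3-kinase gene, MAPK8 and the wall-associated kinase gene. In the casein kinase 1-like, PRPF4B, aarF and dikinase genes every library had a place of its own. Several peaks in 1 library were found for 6 of 78 calls of members (7.69%) and for 9.73% of all calls.

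**Figure D3:**
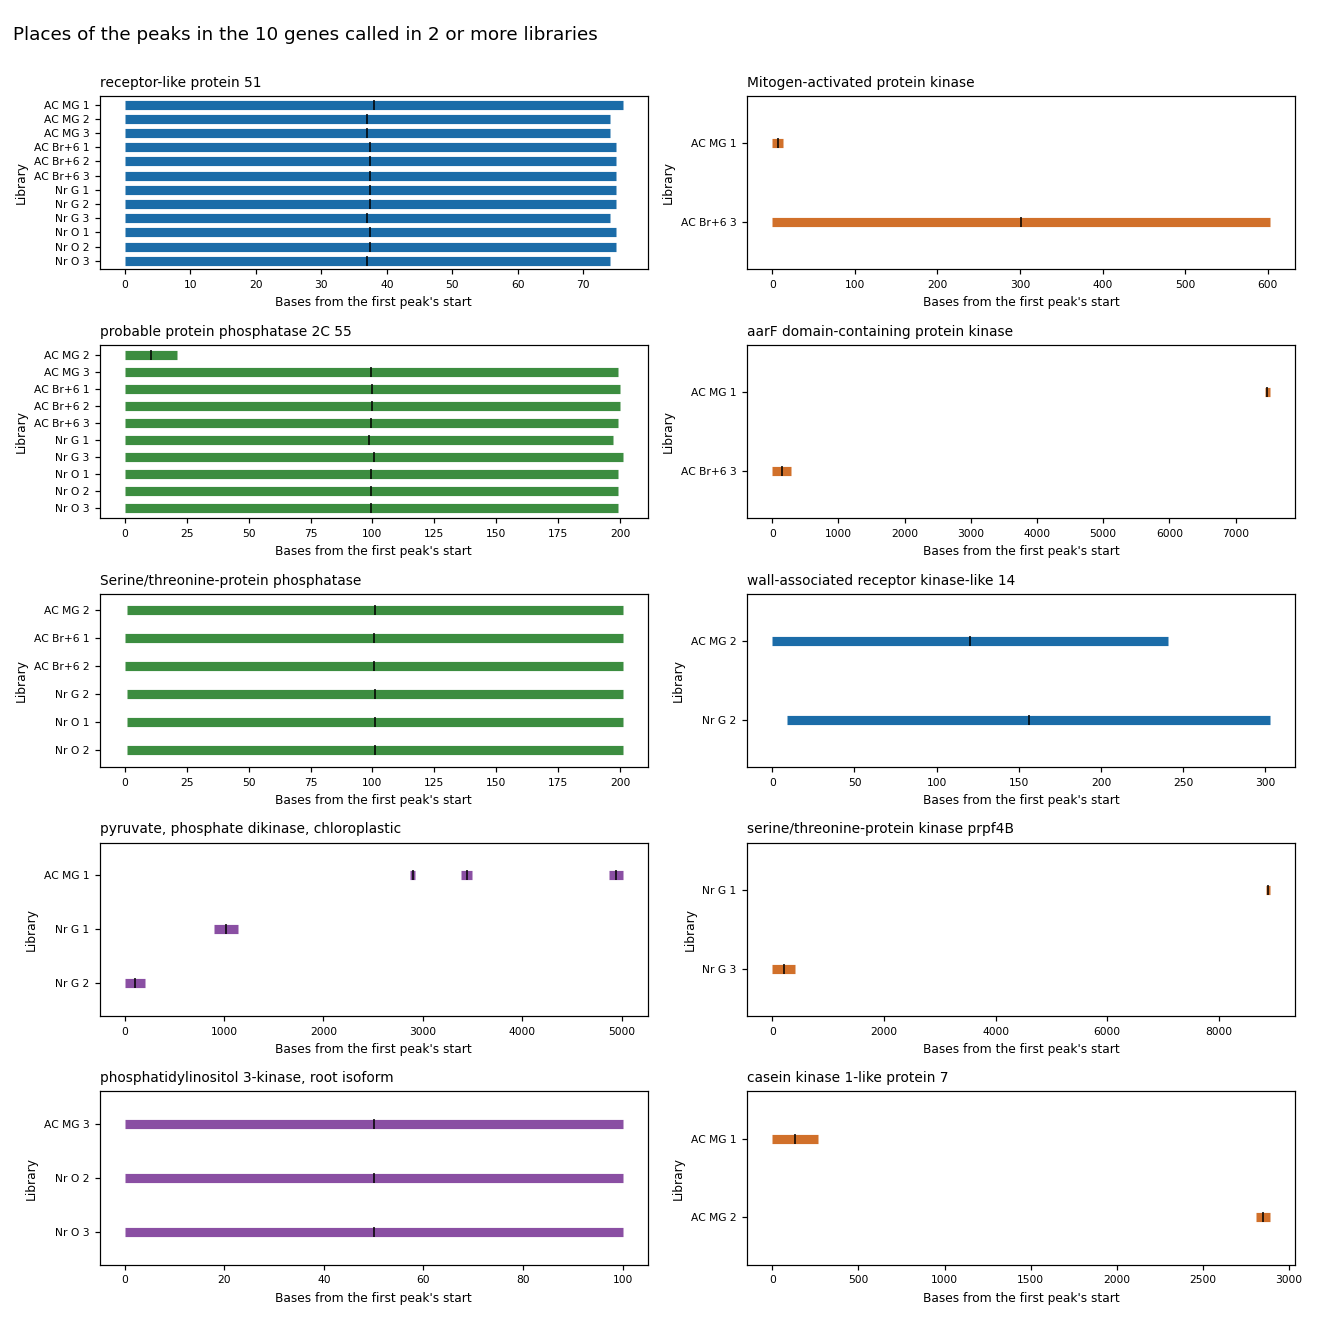
Places of the listed peaks in the 10 genes called in 2 or more libraries, in bases from the start of the gene's first peak; each bar is a peak, drawn to scale, with a tick at its middle. In 6 genes the bars of different libraries stack, and in 4 genes they lie apart, by up to 8450 bases.

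The number of members called per library was highest in the 2 longest lists. Never-ripe fruit had 5, 6 and 5 at the green stage and 3, 4 and 4 at the orange stage, while the wild type had 13, 6 and 9 when green and 4, 6 and 13 when red. The mean was 5.33 ± 0.577 (SD, n = 3) in Nr G, 3.67 ± 0.577 in Nr O, 9.33 ± 3.51 in AC MG and 7.67 ± 4.73 in AC Br+6. As a percent of all mRNA genes called in a library, the mean was 1.89% ± 0.751 in Nr G, 3.01% ± 0.258 in Nr O, 2.73% ± 0.523 in AC MG and 2.31% ± 0.537 in AC Br+6. The ranges of AC MG (2.13% to 3.11%), AC Br+6 (1.77% to 2.84%) and Nr G (1.40% to 2.75%) overlapped, and that of Nr O (2.84% to 3.31%) lay just above Nr G. With lists cut to equal length, 108 peaks each, the means were 2.18% and 2.27% in Nr G and Nr O and 3.45% and 1.62% in AC MG and AC Br+6. Counted among genes with a description, they were 4.26% and 10.3% in Nr G and Nr O and 6.19% and 5.70% in AC MG and AC Br+6. The order of the groups thus depended on the total used.

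Taking all 3 libraries of a group, calls were found for 11 members in Nr G, 5 in Nr O, 24 in AC MG and 18 in AC Br+6. These are 25%, 11.4%, 54.5% and 40.9% of the 44, and over all 1945 genes the shares were 34.6%, 9.92%, 44.4% and 46.6%. The 5 genes of Nr O were those for receptor-like protein 51, phosphatase 2C 55, Solyc01g073650, the phosphatidylinositol 3-kinase and the receptor-like gene Solyc08g077740. In the same order of groups, receptor-like genes numbered 4, 2, 6 and 3 of 11. Other protein kinases numbered 1, 0, 8 and 7 of 14, and phosphatases 3, 2, 6 and 7 of 12. Metabolic and lipid kinases numbered 3, 1, 4 and 1 of 7. In this order of subclasses, Nr G held 36.4%, 7.14%, 25% and 42.9%, beside 34.6% of all genes. Nr O held 18.2%, 0%, 16.7% and 14.3%, beside 9.92%. AC MG held 54.5%, 57.1%, 50% and 57.1%, beside 44.4%. AC Br+6 held 27.3%, 50%, 58.3% and 14.3%, beside 46.6%. Calls in AC alone were held by 31 of the 44 genes (70.5%), against 61.4% of all genes, and calls in Nr alone by 7 (15.9%), against 22.9%. By stage, 24 of the 44 (54.5%) were called in green fruit alone and 14 (31.8%) in late fruit alone, and over all genes the shares were 49.6% and 32.6%.

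**Figure D4:**
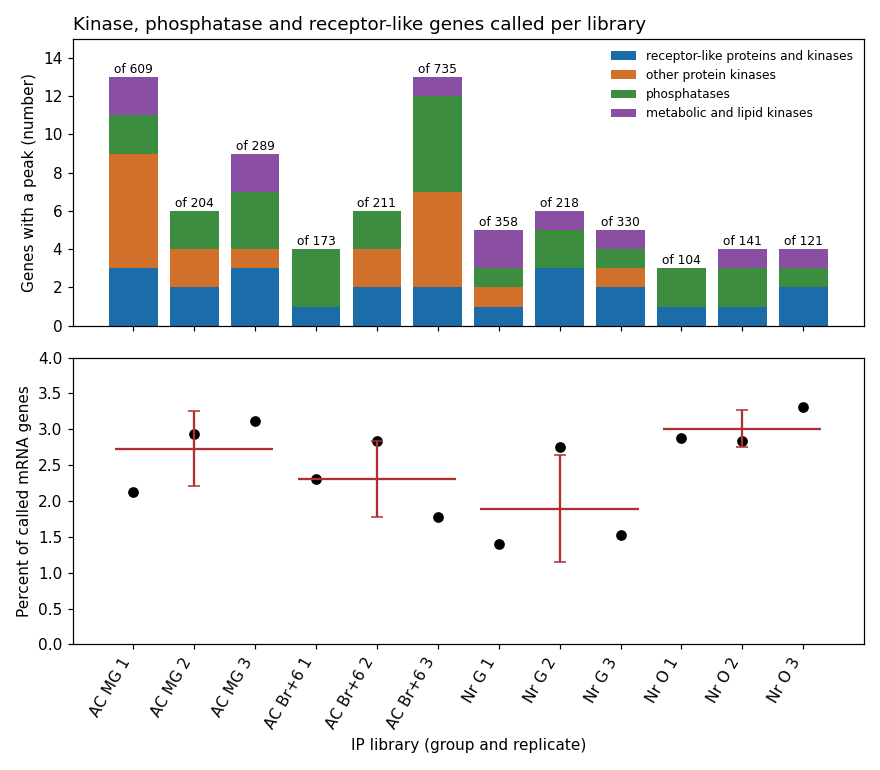
Upper panel, members with a peak in each IP library by subclass, with the number of all called mRNA genes above each bar; lower panel, members as a percent of those genes, with the group mean and SD (n = 3). The tallest bars, 13 each, belong to the 2 longest lists, while the percents lie between 1.40 and 3.31.

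Red wild-type fruit was compared with green wild-type fruit to ask which of these mRNAs gain or lose a peak in ripening. A gene counted as gained or lost if 2 or 3 libraries on one side held a call and none on the other did. The casein kinase 1-like gene was lost, with 2 calls in green fruit and none in red, and no member was gained. Of 37 members called in either group, 1 (2.70%) was lost, and of all 1500 genes 1.87% were lost and 1.33% gained. The loss was gone without AC MG replicate 1 or replicate 2, since each held 1 of its 2 calls. Without AC MG replicate 2, Solyc01g073650 was gained. The 2 calls lay 2541 bases apart, so no single place was lost.

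In Never-ripe the same comparison found 1 member gained and 2 lost among 13. The phosphatidylinositol 3-kinase gene was called in 2 of 3 Nr O and 0 of 3 Nr G libraries. Of all 751 genes 0.666% were gained. The PRPF4B and dikinase genes each had calls in 2 green libraries and in no orange one, a loss shared by 7.06% of all genes. Neither had its 2 calls in the same place. The gain was gone without Nr O replicate 2 or 3, and without Nr G replicate 2 Solyc01g073650 was gained too. Without Nr G replicate 1 neither loss remained, without Nr G replicate 2 only that of PRPF4B, and without Nr G replicate 3 only that of the dikinase gene.

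In green fruit of both genotypes, PRPF4B had 2 calls in the mutant and none in the wild type, and the casein kinase 1-like gene had 2 in the wild type and none in the mutant. These were 1 member each of 30. Over all 1311 genes 1.83% were called in Nr G only and 3.2% in AC MG only by this rule. The PRPF4B call was gone without Nr G replicate 1 or 3 and the casein kinase call without AC MG replicate 1 or 2. Without AC MG replicate 1 the dikinase gene was called in Nr G only as well. The comparisons share groups, so the same calls of PRPF4B and casein kinase 1-like enter more than 1 of them.

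In late fruit the phosphatidylinositol 3-kinase gene was called in 2 of 3 Nr O and 0 of 3 AC Br+6 libraries, 1 of 20 members. Of all 981 genes 0.204% showed this, and 4.18% showed the reverse, which no member did. The call was gone without Nr O replicate 2 or 3. Its peak is among the weakest of those lists, and it was also gone when only peaks at or above a list's median fold enrichment were used. The gene was included by name with its calls known, so its pattern is a description.

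Single genes were tested over all 12 libraries, 6 against 6, where they were called in 3 to 9 of them, which took in 3 of the 44 members. The dikinase gene had 3 calls among the 6 green libraries and none among the 6 late ones (p 0.182 by Fisher's two-sided exact test, 1.0 after Benjamini-Hochberg adjustment over 140 genes). Solyc01g073650 was called in 4 of 6 late and 2 of 6 green libraries (exact p 0.567, adjusted p 1.0), and in 3 of 6 libraries of each genotype. The phosphatidylinositol 3-kinase gene was called in 2 late and 1 green library, and in 2 Nr and 1 AC library (exact p 1.0 in both tests, adjusted p 1.0). Of the 140 genes 0.0% passed for stage or for genotype after adjustment. At an unadjusted p under 0.05 there were 0 for stage and 1 for genotype, which is no member. A gene called 3 times cannot reach a Fisher exact p under 0.182 here, so these tests do not show that the groups are alike.

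Other genes of the pathways were sought by words fixed for each. The abscisic acid words found 6 genes, all protein phosphatases 2C, of which 5 were called in 1 library, as were 75.6% of all genes. They were found by the name of that family alone, so a part of these 6 genes in abscisic acid signalling is not shown. No abscisic acid receptor or SnRK2 kinase was found. The calcium words found 5 genes, the CDPK-related kinase 5 gene and 4 that are no members. Of these the calcineurin B-like gene (Solyc12g015870), for a calcium sensor that activates kinases, was called in AC MG replicate 1, AC Br+6 replicate 3 and Nr O replicate 2, at up to 50. The MAP kinase words found MAPK8 and the MAPKKK-like gene. The phosphoinositide words found the phosphatidylinositol 3-kinase gene and 3 others called once each, 2 of them in AC MG replicate 3. A 14-3-3 protein 9 gene (Solyc07g053260), for a protein that binds phosphorylated partners, was called in AC MG replicate 1 and Nr G replicate 2. Words for brassinosteroid signalling, SnRK1 and the ethylene kinase CTR1 found 0 genes. The words searched descriptions only, and the gene with the symbol SNF1 (Solyc02g067030), the yeast name for the kinase called SnRK1 in plants, has the description of a non-specific serine/threonine kinase. In these lists 0 genes were gained or lost in any comparison, other than the phosphatidylinositol 3-kinase gene. Over all genes, 0.204% to 7.06% were gained or lost in a comparison. Most genes of these lists were called in 1 library, which cannot meet the rule, so the count says little about the pathways.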

How the data were processed

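The files are lists of m1A peaks, 12 each for mRNAs, lncRNAs and circRNAs, 1 per IP library. Inputs, 12 libraries, were not analysed here. Each list was assigned to its IP sample by the genotype, stage and replicate in its name. Per the labels' protocols, RNA was fragmented, bound by an m1A antibody and treated with alkali to turn m1A into m6A before whole-RNA libraries were made. Per the submitters' processing notes, cutadapt 1.9.3 and HISAT2 2.0.4 were used. Peak names begin with MACS, and the peak caller's settings and control were not given in the sources used here. The lists' deposited fold enrichment is a ratio from the authors' peak caller with a highest value of 50. The score, deposited by the authors, is 10 times the negative log10 (−log10) of the p-value. FDR was deposited as a percent, it reads 100 for all 3852 mRNA peaks, and it was not used. The assembly, SL3.00, is the one that a circRNA list's scaffold name gives, and positions are as listed. Position within exons or UTRs was not analysed here.

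Calls were counted with pandas 2.3.3, tests used SciPy 1.17.1, and the per-gene test was tested on simulated data. All 44 NCBI gene numbers were found in the RefSeq gene table of another assembly, with the same symbols, and none of its coordinates were used. The riboflavin kinase gene, whose description also says phosphatase, was placed with the metabolic kinases by hand. Members, subclasses and word lists were chosen with earlier results of these data known. Genes to be named were Solyc04g015350, members gained or lost or called in at least 3 libraries, the 4 most often called of each subclass, the 3 strongest of each group and pathway members called in at least 2 libraries, 19 in all. Other members are named to account for all 44, after their values were seen. Alternatives tried were stronger peaks, equal list lengths, stricter and looser rules, other overlaps, a narrower list, the replicate number as a block and each library left out.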

Additional observations from a re-analysis of the deposited data

Results flagged for a closer look

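A signal outside the mRNA lists touched 1 member. In AC MG replicate 1 the circRNA list holds a peak of 18.13 fold enrichment and 45 bases on a circle of 161 bases (chromosome 1, 79552587 to 79552747) hosted by the dikinase gene Solyc01g080460 and catalogued as antisense. It has the start and value of an mRNA peak of that gene in the same library. No other peak of the 44 genes overlapped a circRNA or lncRNA peak of its library, or an mRNA peak of another gene.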

How the results depend on the processing

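Counts of gained and lost members are small, and most moved with the rule. Gained and lost members numbered 13 and 19 for AC Br+6 against AC MG, 2 and 8 for Nr O against Nr G, 6 and 19 for Nr G against AC MG, and 2 and 15 for Nr O against AC Br+6 when 1 of 3 libraries against 0 of 3 was enough. As a percent of members called in either group these are 35.1 and 51.4, 15.4 and 61.5, 20 and 63.3, and 10 and 75, and over all genes 42.5 and 39.6, 10.5 and 74.3, 34.2 and 48.7, and 7.65 and 80.3. None was gained or lost, a count of 0 in each comparison, at 3 of 3 against 0 of 3. At an equal length of all lists the counts of lost members for AC Br+6 against AC MG, lost for Nr O against Nr G, and gained and lost for Nr G against AC MG were 0. Using the stronger peaks of each list, those not under its median, the gains of Nr O against Nr G and against AC Br+6 were 0, and 1 member was lost in Nr O against Nr G. For the strict rule, equal lengths and stronger peaks the shares over all genes are not given here. The counts of 0 under them therefore say little about the members. When 2 calls had to overlap, an alternative chosen after seeing the data, 0 members were lost in AC Br+6 against AC MG or in Nr O against Nr G and 0 were gained or lost in Nr G against AC MG. Both gains of the phosphatidylinositol 3-kinase gene remained. Over all genes, 53.6% to 100% of the calls of a comparison remained under that rule. Leaving out 1 library at a time, with 2 of 2 calls asked of a reduced group, gave 0 to 1 gained and 0 to 1 lost in AC Br+6 against AC MG, 0 to 2 and 0 to 2 in Nr O against Nr G, 0 to 2 and 0 to 1 in Nr G against AC MG, and 0 to 1 and 0 to 0 in Nr O against AC Br+6.

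Members made up 3.45% of called genes in AC MG, 1.62% in AC Br+6 and 2.27% in Nr O with lists of equal length. In Nr O the percent was 2.14 with peaks at or above the median and 4.47 without the genes called in all 12 libraries. Among genes with a description, a total chosen after seeing the data, it was 4.26% in Nr G, 10.3% in Nr O, 6.19% in AC MG and 5.70% in AC Br+6. Without single libraries it ran from 1.46 to 2.13 in Nr G, 2.86 to 3.10 in Nr O, 2.54 to 3.03 in AC MG and 2.04 to 2.58 in AC Br+6. The cause of these shifts was not tested.

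No member passed the per-gene test of stage or genotype under any alternative run, and the lowest adjusted p of any of the genes tested lay between 0.266 and 1.0. The lowest Fisher exact p of these runs, 0.00216 for genotype without AC MG replicate 2, became 0.266 after adjustment over 123 genes. A single gene at that p could thus not pass alone, and these runs do not show that the groups are alike. With the replicate number as a block the lowest exact p over 140 genes was 0.0556 for stage and 0.0278 for genotype, and 0 genes passed. Deviations of libraries with the same number had correlations of -0.067 to 0.072 over 12 pairs. As 75.6% of genes were called in 1 library, these values cannot show whether such libraries were otherwise paired. The labels give no pairing beyond the number. Depth is unknown, so how far it sets these calls was not tested.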
